A study of Rattus norvegicus with 18 samples.

Results

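Resp18 and 9 genes that lie beside it on rat chromosome 9 (Ptprn, Dnpep, Tuba4a, Stk16, Dnajb2, Speg, Abcb6, Glb1l and Atg9a) are described here in kidneys of a chromosome 9 congenic rat strain and of the Dahl salt-sensitive (S) rat. Every probe set that the array annotation assigned to 1 gene symbol was taken where that symbol was 1 of the 10, which gave 15 probe sets for 10 of the 10969 genes on the arrays. The genes were picked from the strain difference of Resp18 and of genes around it in these same samples, so their own strain differences are descriptions and were not tested.

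The congenic strain carries a chromosome 9 segment of the salt-resistant (R) rat on the genome of the Dahl S rat, and it was built to study a blood pressure quantitative trait locus, a stretch of chromosome whose alleles go with blood pressure. The Dahl S rat is the inbred parent strain, whose pressure climbs on salt, and by design the strains share their genome outside the segment. There were 3 congenic and 3 Dahl S samples of total kidney RNA, each hybridised to 3 array types, A, B and C. The sources used here do not give the ends of the segment, the diet or the age of the rats. No label ties the sample tags to separate animals. Every p-value therefore sets a strain difference only against the spread among these samples, and part of that spread may be technical.

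Resp18 and Ptprn encode relatives of one another that work in the regulated secretory pathway, the route by which endocrine and neuroendocrine cells store hormones in granules and release them on demand. The Resp18 protein lies inside the endoplasmic reticulum and granules of such cells, and Ptprn, also called IA-2, spans the granule membrane. The other genes have housekeeping or muscle roles and are grouped with Resp18 by position alone: a cytosolic peptidase (Dnpep), a tubulin (Tuba4a), a Golgi-associated kinase (Stk16), a co-chaperone (Dnajb2), a muscle kinase (Speg), a porphyrin transporter (Abcb6), a relative of lysosomal beta-galactosidase (Glb1l) and an autophagy membrane protein (Atg9a).

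Along the chromosome in the GRCr8 assembly the run reads Abcb6, Atg9a, Glb1l, Stk16, Tuba4a, Dnajb2, Ptprn, Resp18, Dnpep and Speg. It holds 15 annotated genes, 12 of them protein-coding. The 2 protein-coding genes between the members are Ankzf1, which had no probe set, and Des, the muscle intermediate filament desmin. The Des probe set was not tested: it read 12.6, 13.8 and 8.5 in the congenic samples, against 9.9, 7.1 and 10.3 in the Dahl S samples, all under the level of 21.2 explained below.

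The start regions of 5 members are shown because they belong to the member with the largest drop in congenic signal (Resp18), its nearest relative and neighbour (Ptprn), the member with the largest higher congenic signal (Tuba4a), and a pair that starts from one shared stretch (Stk16 and Glb1l). They come from RefSeq on the GRCr8 assembly, run from 250 bases before to 50 bases after the annotated start, and are reference sequence, not sequence of either strain. RefSeq windows were matched for 9 of the 10 genes, Atg9a being the exception. Capitals mark 4 motifs searched on both strands: TGACG or CGTCA (a cAMP response element core), CCAAT or ATTGG (the CCAAT box), GGGCGG or CCGCCC (the GC box) and TATAA or TTATA (the TATA box). No searched motif overlaps another in the printed windows.
Resp18 (chr9:84220137-84220436, minus strand): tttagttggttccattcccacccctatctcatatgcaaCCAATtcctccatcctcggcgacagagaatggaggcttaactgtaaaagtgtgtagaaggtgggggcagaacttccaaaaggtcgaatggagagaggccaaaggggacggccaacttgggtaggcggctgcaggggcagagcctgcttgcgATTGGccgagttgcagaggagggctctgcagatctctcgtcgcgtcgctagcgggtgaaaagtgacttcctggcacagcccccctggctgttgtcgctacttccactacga
Ptprn (chr9:84204774-84205073, minus strand): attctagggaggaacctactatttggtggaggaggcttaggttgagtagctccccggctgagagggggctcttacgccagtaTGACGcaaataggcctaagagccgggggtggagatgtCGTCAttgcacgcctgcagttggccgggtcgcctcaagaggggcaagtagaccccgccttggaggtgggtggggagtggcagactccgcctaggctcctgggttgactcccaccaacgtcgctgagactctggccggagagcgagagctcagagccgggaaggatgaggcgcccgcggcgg
Tuba4a (chr9:84162535-84162834, minus strand): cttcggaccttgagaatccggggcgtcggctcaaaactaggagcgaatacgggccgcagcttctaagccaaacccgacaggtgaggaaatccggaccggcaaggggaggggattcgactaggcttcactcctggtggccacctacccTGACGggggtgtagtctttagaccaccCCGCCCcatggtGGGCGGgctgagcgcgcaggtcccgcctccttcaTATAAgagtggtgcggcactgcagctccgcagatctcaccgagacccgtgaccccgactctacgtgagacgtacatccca
Stk16 (chr9:84154035-84154334, plus strand): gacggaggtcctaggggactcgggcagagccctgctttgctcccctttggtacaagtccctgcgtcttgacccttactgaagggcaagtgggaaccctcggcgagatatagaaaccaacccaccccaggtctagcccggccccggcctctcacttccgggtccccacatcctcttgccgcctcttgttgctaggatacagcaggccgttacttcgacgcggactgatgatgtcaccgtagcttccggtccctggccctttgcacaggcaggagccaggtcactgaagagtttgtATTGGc
Glb1l (chr9:84154127-84154426, minus strand): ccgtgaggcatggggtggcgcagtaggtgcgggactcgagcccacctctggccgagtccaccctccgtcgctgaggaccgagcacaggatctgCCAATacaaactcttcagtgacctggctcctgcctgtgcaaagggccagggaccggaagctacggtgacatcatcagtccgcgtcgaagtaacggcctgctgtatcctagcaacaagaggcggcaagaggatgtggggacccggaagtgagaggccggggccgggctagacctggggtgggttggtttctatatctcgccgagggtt

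The Resp18 window was 56.0% G and C and held the CCAAT box letters at 212 and 61 bases before the start, a motif found in 37.5% of all 33469 rat windows. The Ptprn window, 63.0% G and C, held the cAMP response element core at 168 and 131 bases before the start, letters present in 21.2% of all windows and absent from the Resp18 window. The Tuba4a window held that core at 103 bases, GC boxes at 76 and 64 bases and a TATA box at 30 bases before the start, with 33.1% and 26.2% of all windows holding a GC box and a TATA box. Stk16 and Glb1l are transcribed away from each other from starts that lie 108 bases apart, so their windows share 208 bases (chr9:84154127-84154334) read on opposite strands. The CCAAT letters at 157 bases before the Glb1l start and the ATTGG letters at 45 bases after the Stk16 start are the same bases. A match of letters describes the window and shows no binding.

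A probe set combines several short probes against 1 transcript and has 1 signal per array in arbitrary units. Signals were scaled to a trimmed mean of 150.1 to 150.2 on every array, and their order between different probe sets has no meaning. A probe set was tested when its mean log2 signal over the 6 samples reached the 40th percentile of its array type, which corresponds to 21.2, 39.3 and 37.7 units on types A, B and C. Signals under that level are named below, because they were not shown to be above background. Differences are congenic minus Dahl S on the log2 scale with limma's standard error (SE), and n was 3 per strain throughout. In bulk kidney RNA, fewer cells of a type and less RNA per cell cannot be told apart. The samples numbered 1 stood apart: congenic sample 1 and Dahl S sample 1 correlated at 0.927 across tested probe sets, against 0.875 to 0.899 with the other 4 samples. The 2 samples are therefore also left out together below.

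All 10 genes had at least 1 probe set that passed the filter, 14 of 15 probe sets in all. Of the 14, 5 had a lower and 9 a higher congenic mean, with a median difference of +0.06. The median was -0.0035 over all 15721 tested probe sets and -0.0065 over 8168 genes with 1 probe set each. The 3 congenic values lay outside the range of the 3 Dahl S values in 4 of the 14, lower in both Resp18 probe sets and higher in Tuba4a and in 1 Speg probe set. Over all 15721 tested probe sets that share was 7.08%, with 3.49% lower and 3.59% higher. Since the members were chosen on this contrast, nothing is read from the counts side by side. The filter uses the mean of all samples, so Resp18 passed it through its Dahl S signals and Tuba4a mainly through its congenic signals. In the whole comparison limma gave an adjusted p under 0.05 to 0 of 15721 probe sets (0%) and an unadjusted p under 0.05 to 391 (2.49%), made up of 1.17% with a higher and 1.32% with a lower congenic mean.

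**Figure D1:**
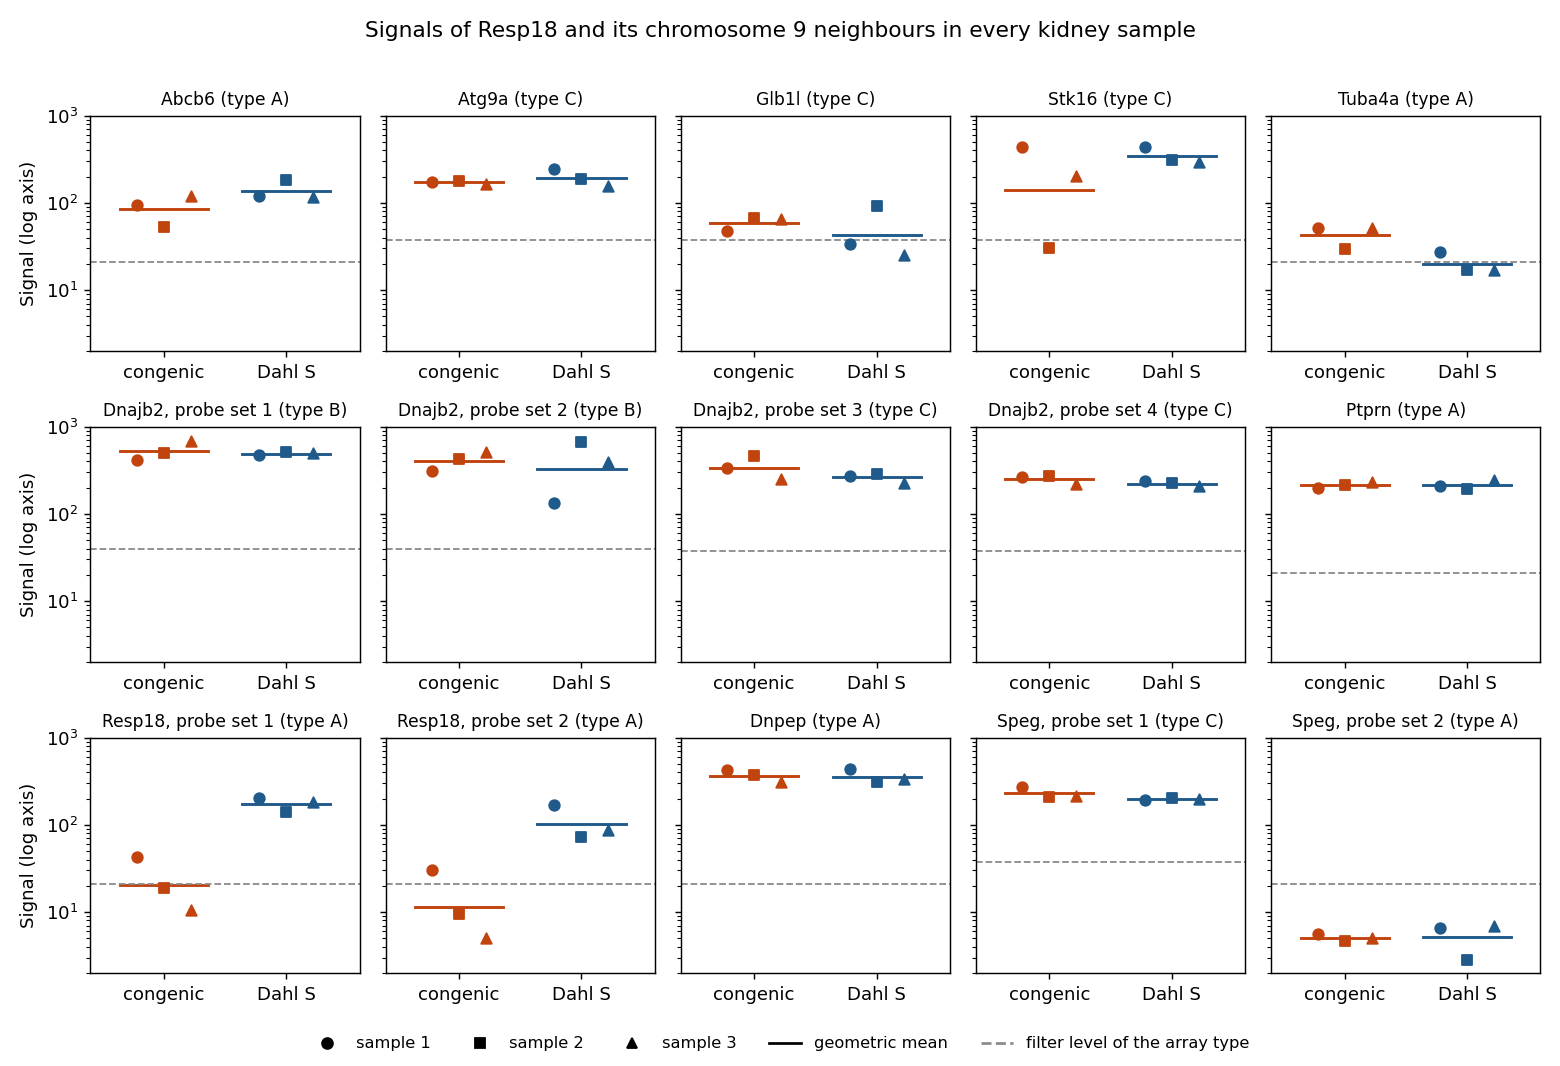
Signal (log axis, arbitrary units) of the 15 probe sets in the 3 congenic and 3 Dahl S samples, in gene order from Abcb6 to Speg; point shapes give the sample number, solid lines the geometric mean of each strain and dashed lines the filter level of the array type. Resp18 congenic signals lie between 5.1 and 43.1, below Dahl S signals of 72.2 to 201.6, and most other panels overlap.

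Resp18 was the member with the large strain difference. Probe set 1 read 43.1, 18.9 and 10.6 in the congenic samples, against 201.6, 141.8 and 184.3 in the Dahl S samples. The groups did not overlap: the highest congenic value was under the lowest Dahl S value, and congenic samples 2 and 3 were below 21.2. Geometric means were 20.5 in the congenic strain and 174.0 in Dahl S, with SDs of 1.02 and 0.26 log2 units. The difference was -3.08 (SE 0.50), or 8.48-fold lower in the congenic strain.

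Probe set 2 of Resp18, made from the same transcript sequence and read on the same arrays, gave 30.4, 9.5 and 5.1 in the congenic samples, against 166.6, 72.2 and 87.4 in the Dahl S samples. It ordered the 6 samples exactly as probe set 1 did, with sample 1 the highest of its strain in both. Its geometric means were 11.4 in the congenic strain and 101.7 in Dahl S, with SDs of 1.31 and 0.63 log2 units. The difference was -3.16 (SE 0.69), or 8.94-fold lower. Over all tested probe sets the median size of a difference was 0.18 and the 99th percentile 1.30.

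The size of the Resp18 difference depends on congenic signals near the bottom of the scale. With every signal under 21.2 raised to it, an alternative chosen after seeing the data, probe set 1 was 6.48-fold lower in the congenic strain (-2.70) and probe set 2 was 4.25-fold lower (-2.09). Leaving out 1 sample at a time gave -3.62 to -2.61 for probe set 1 and -3.87 to -2.58 for probe set 2. Without both samples numbered 1, each probe set gave -3.51. The spread inside the congenic strain was wide, with the highest sample 4.07 times the lowest in probe set 1 and 5.96 times in probe set 2, against 1.42 and 2.31 times in Dahl S.

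Ptprn lies next to Resp18 among the protein-coding genes. Its probe set read 199.8, 214.4 and 233.9 in the congenic samples, against 209.7, 192.1 and 241.4 in the Dahl S samples. The groups overlapped fully, and the lowest and the highest of the 6 values were both Dahl S. Geometric means were 215.6 in the congenic strain and 213.4 in Dahl S, a difference of +0.01 (SE 0.18) that stayed between -0.06 and +0.10 with 1 sample left out.

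Dnpep, the protein-coding neighbour on the other side, encodes aspartyl aminopeptidase, a cytosolic enzyme that removes acidic residues from the start of peptides, angiotensin II among them. It read 421.7, 371.9 and 310.9 in the congenic samples, against 438.0, 307.4 and 334.0 in the Dahl S samples. The values interleaved, with sample 1 the highest in each strain. The difference was +0.04 (SE 0.20), and it ranged from -0.07 to +0.19 with 1 sample left out.

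Tuba4a, an alpha-tubulin, was the member with the largest difference in the other direction. It read 51.6, 29.5 and 51.6 in the congenic samples, against 27.4, 17.0 and 16.9 in the Dahl S samples. The groups did not overlap, but congenic sample 2 and Dahl S sample 1 were close, and Dahl S samples 2 and 3 were under 21.2. The difference was +1.11 (SE 0.47), or 2.15-fold higher in the congenic strain.

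Tuba4a gave +0.97 to +1.38 with 1 sample left out and +1.20 without both samples numbered 1. With signals under 21.2 raised to it the difference was +0.89, or 1.85-fold. Tubulin transcripts are similar in their coding parts, and whether these probes bind more than 1 of them was not tested. The other 7 tested tubulins, each read by its probe set with the highest signal, had lower congenic means, from -0.52 to -0.07. Over all 13 of their tested probe sets 11 were lower and 2 higher, from -0.55 to +0.20, both ends being probe sets of Tubb5, a beta-tubulin.

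Stk16, a serine/threonine kinase attached to Golgi membranes in mouse and human cells, had the least even signal. It read 436.7, 30.6 and 204.2 in the congenic samples, against 431.4, 314.0 and 294.0 in the Dahl S samples. Congenic sample 1 was the highest of all 6, whereas congenic sample 2 was the lowest and under the type C level of 37.7. The difference of -1.29 (SE 0.80) rested on that sample.

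Without congenic sample 2 the Stk16 difference was -0.19, and without congenic sample 1 it was -2.11. Without both samples numbered 1 it was -1.94. The SD was 1.98 log2 units in the congenic strain and 0.30 in Dahl S, and only 1.1% of tested probe sets had a larger pooled SD.

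Glb1l, which shares its start region with Stk16, read 47.8, 67.2 and 64.5 in the congenic samples, against 33.7, 93.1 and 25.5 in the Dahl S samples. The congenic values lay inside the Dahl S range, and Dahl S samples 1 and 3 were under 37.7. The difference was +0.46 (SE 0.53). It was +0.08 without Dahl S sample 3 and +1.01 without Dahl S sample 2, so it moved with single samples.

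Abcb6 encodes a membrane transporter of porphyrins, the ring molecules from which heme is made. It read 94.3, 52.2 and 121.1 in the congenic samples, against 120.0, 183.1 and 117.9 in the Dahl S samples. Congenic sample 3 overlapped the Dahl S values, and congenic sample 2 was the lowest of the 6. The difference was -0.71 (SE 0.35), or 1.63-fold lower in the congenic strain. It was -0.36 without congenic sample 2, -0.50 without Dahl S sample 2 and -0.89 without both samples numbered 1.

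Atg9a encodes the membrane-spanning protein that supplies lipid to growing autophagosomes. It read 173.2, 178.6 and 164.0 in the congenic samples, against 245.9, 190.0 and 155.2 in the Dahl S samples. The congenic values lay inside the Dahl S range. The difference of -0.17 (SE 0.21) was 0 without Dahl S sample 1.

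Dnajb2, a co-chaperone that hands ubiquitin-tagged proteins to the degradation machinery, had 4 probe sets, all passing the filter. The differences were +0.09 (SE 0.22), +0.31 (SE 0.50), +0.36 (SE 0.23) and +0.18 (SE 0.17), all of 1 sign. Both strains overlapped in all 4. Probe set 1 read 415.7, 493.7 and 691.5 in the congenic samples, against 471.7, 506.6 and 495.2 in the Dahl S samples. Its difference was -0.12 without congenic sample 3. Probe set 4, the most even, read 265.9, 270.7 and 221.4 in the congenic samples, against 235.9, 222.9 and 206.8 in the Dahl S samples.

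Probe set 2 of Dnajb2 was the uneven one. It read 308.9, 426.0 and 505.2 in the congenic samples, against 132.9, 673.2 and 390.5 in the Dahl S samples. Its difference was -0.34 without Dahl S sample 1 and +0.83 without Dahl S sample 2, so its sign rested on single samples. Probe set 3 read 334.4, 454.9 and 249.2 in the congenic samples, against 273.8, 286.4 and 227.8 in the Dahl S samples.

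Speg, a muscle kinase that also has a short form first described in rat arterial smooth muscle, had 2 probe sets with different readings. Probe set 1 read 269.5, 210.3 and 211.1 in the congenic samples, against 192.9, 200.6 and 195.6 in the Dahl S samples. The groups did not overlap, although the gap was small and congenic sample 1 stood above the rest. The difference was +0.22 (SE 0.18), and +0.09 without both samples numbered 1. Probe set 2 read 5.6, 4.6 and 5.1 in the congenic samples, against 6.5, 2.8 and 7.0 in the Dahl S samples. Every one of those signals was under 21.2, so that probe set was not tested.

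**Figure D2:**
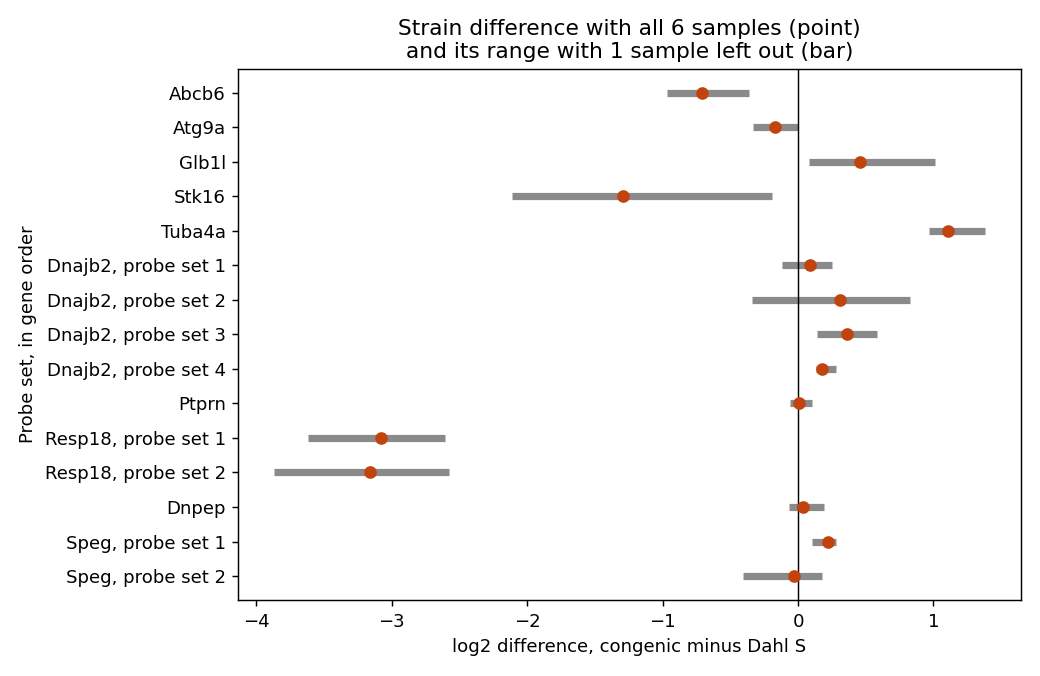
Log2 difference, congenic minus Dahl S, of each of the 15 probe sets (horizontal axis, points) with all 6 samples and its range when 1 sample is left out (grey bars), with the probe sets in gene order down the page. Both Resp18 bars end at or below -2.58, the Tuba4a bar starts at +0.97, the Stk16 bar reaches from -2.11 to -0.19, and the bars of Ptprn and Dnpep cross 0.

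Genes around the members were read from the same fit. They are not members, but the members were picked with results of this stretch known, so the neighbours' values are not independent of that choice. Among the 25 tested genes on each side of Resp18, 41 were not members, 18 before the run and 23 after it. Of the 41, limma gave 0 an adjusted p under 0.05 and 1 (2.44%) an unadjusted p under 0.05, against 2.35% of all 8168 genes. That gene was Cab39, a scaffold of the kinase LKB1, which read 467.0, 426.7 and 493.4 in the congenic samples, against 400.9, 291.9 and 297.9 in the Dahl S samples. Its difference was +0.50 (SE 0.21, limma adjusted p = 0.9997), while its other probe sets gave +0.41 and +0.03. Of the 41 neighbours, 14 had a higher and 27 a lower congenic mean, with a median of -0.09 against -0.01 over all other genes.

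The neighbours ranged from -0.53 in Slc4a3, an anion exchanger, to +0.60 in Fev, a transcription factor, neither of which passed the test. In 6 of the 41 (14.6%) the strains did not overlap, against 7.62% of all genes. These were named after their values were seen. Pnkd (-0.27), Slc23a3 (-0.46, SE 0.25), Cnppd1 (-0.31, SE 0.18) and Sp110 (-0.27) had lower congenic values. Cab39 and Inha, the inhibin alpha subunit (+0.52, SE 0.26), had higher ones, although a second Inha probe set gave -0.32. Each of the 41 differences was smaller than that of Resp18.

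**Figure D3:**
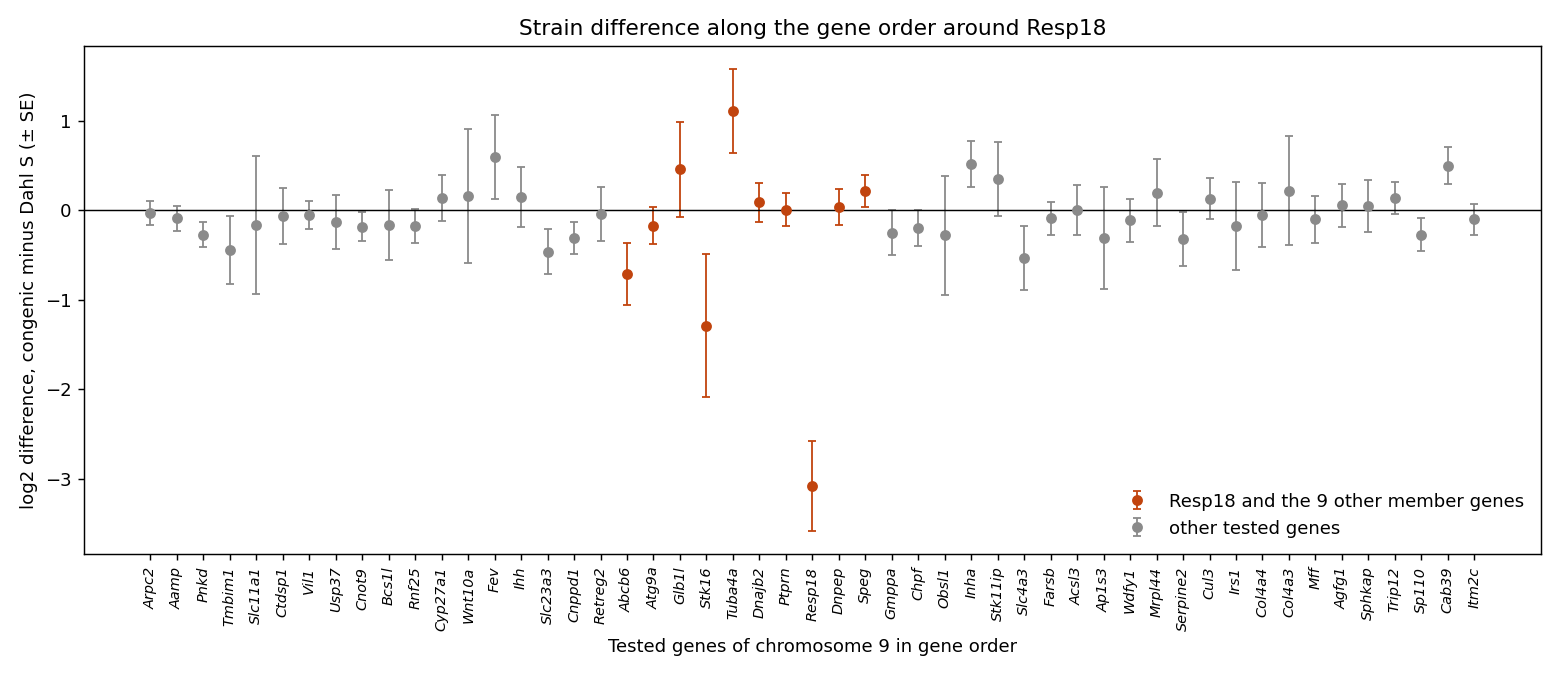
Log2 difference, congenic minus Dahl S, with its SE (vertical axis) for Resp18 and the 25 tested genes on each side in chromosome 9 gene order; orange points are the 10 members and grey points the 41 other genes, each by its probe set with the highest mean signal. Resp18 at -3.08 lies far below the grey points, which run from -0.53 to +0.60, and its nearest tested neighbours Ptprn and Dnpep lie at +0.01 and +0.04.

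The 5 non-member genes whose 6-sample profile was most like that of Resp18 probe set 1 were found by the root mean square distance between log2 signals centred on each probe set's mean, over 11954 tested probe sets with a single symbol. The median distance was 1.68, the second Resp18 probe set was at 0.31, and no other member came nearer than Stk16 at 1.40. A probe set with the same signal in all samples would lie at 1.66. The 5 genes were Itih2 (0.64), Exosc8 (0.65), Anxa3 (0.76), C4a (0.77) and Ntrk2 (0.80). They lie on chromosomes 17, 2, 14, 20 and 17, and being chosen for likeness their strain differences carry no test.

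Exosc8, a subunit of the RNA exosome, read 84.4, 43.4 and 42.0 in the congenic samples, against 197.4, 214.4 and 538.1 in the Dahl S samples. A second Exosc8 probe set gave +0.02, so the pattern belonged to 1 probe set. Itih2, a heavy chain of the inter-alpha-trypsin inhibitors, read 73.7, 28.6 and 15.4 in the congenic samples, against 100.5, 130.9 and 135.1 in the Dahl S samples. Congenic samples 2 and 3 of Itih2 were under the type B level of 39.3. Another Itih2 probe set, not tested, gave -0.62.

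The Anxa3 probe set, for an annexin, gave -1.79, whereas another tested Anxa3 probe set gave +0.24. The C4a probe sets, for complement component C4, gave -2.44 and -0.78, and a close copy of the gene makes their assignment uncertain. In Ntrk2, the receptor of brain-derived neurotrophic factor, the difference was -1.69 with all 3 congenic signals under 39.3. Other Ntrk2 probe sets, with low signals and not tested, gave +1.51 and -0.08. In the chosen probe set of each of the 5 the lowest value was congenic sample 3, as in Resp18. Being chosen for likeness over these same samples, they give no separate result in this. In Exosc8 congenic samples 2 and 3 were close, at 43.4 and 42.0.

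**Figure D4:**
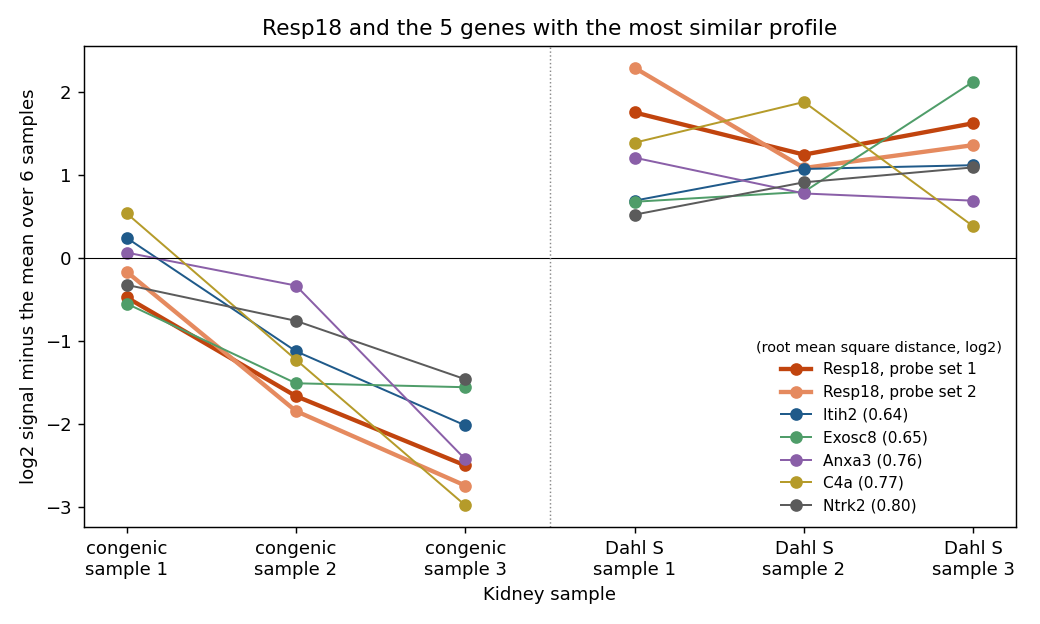
Log2 signal minus the probe set's mean over the 6 samples (vertical axis) for both Resp18 probe sets and the 5 genes with the nearest profiles, sample by sample; lines join the samples of a strain only to make each profile visible, and the numbers in the legend are the distances from Resp18 probe set 1. All 7 profiles have their lowest point in congenic sample 3, and the 5 genes were chosen for likeness to Resp18 over these samples.

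Other genes of the secretory granule were read because Resp18 and Ptprn belong to that pathway. Of 28 listed genes 23 were on the arrays and 9 were tested, 4 higher and 5 lower, with a median of -0.07. Limma gave 0 of them an adjusted p under 0.05 and 1 an unadjusted one: Cpd, a carboxypeptidase of the trans-Golgi network, which read 138.4, 189.3 and 140.7 in the congenic samples, against 92.3, 98.7 and 126.4 in the Dahl S samples (+0.56, SE 0.24). The next was Vgf, a granule protein precursor, at +0.79 (SE 0.41). The balance depended on the probe sets counted: over all 23 tested probe sets of these genes 16 were higher and 7 lower, with a median of +0.12.

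Several defining genes of neuroendocrine granules were under the filter level in every sample. Chgb, a chromogranin, lay between 0.9 and 4.6, Scg2 between 1.0 and 8.4, Scg3 between 1.2 and 4.4 and Scg5 between 2.5 and 12.2. Ptprn2, the closest relative of Ptprn, lay between 2.6 and 20.8. Other granule genes of the list did reach the level. Over the 6 samples Pcsk1n lay between 272.4 and 520.1 and Vgf between 25.5 and 67.4. Cpe lay between 12.1 and 77.3, with 2 congenic samples under 21.2. The Pam probe set with the highest signal lay between 758.6 and 1247.3, while some other Pam probe sets were under the level. In all, 7 of the 14 untested granule genes on the arrays had no signal at the level.

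Markers of the adrenal gland, which lies against the kidney and holds neuroendocrine cells, were also read. Of 18 listed markers 13 were on the arrays and 7 were tested, 6 higher and 1 lower in the congenic strain, with a median of +0.19. Limma gave 0 an adjusted or an unadjusted p under 0.05, the smallest p being those of Fdx1 (+0.22, SE 0.20) and Th (+0.27, SE 0.33). The steroid enzymes Cyp11b2 (1.7 to 8.6) and Cyp17a1 (2.4 to 10.2), the steroid transport protein Star (2.2 to 15.5) and the noradrenaline enzyme Dbh (1.8 to 9.2) were under the filter level in all 6 samples. The summed signal of the 7 tested markers was 1398.8, 1377.1 and 1148.0 in the congenic samples, against 1186.4, 1166.1 and 1213.0 in the Dahl S samples. The sums overlapped, with 2 congenic sums above and 1 below all 3 Dahl S sums. They follow mainly the probe sets with the highest signals, those of Ddc (298.2 to 460.4) and Nr5a1 (272.4 to 442.2). Another Nr5a1 probe set (10.3 to 20.3) and another of Slc18a1 (2.5 to 7.0) were under the filter level in all 6 samples. Those probe sets were not tested, whereas other probe sets of Ddc (192.4 to 359.4) and Fdx1 (11.9 to 37.2) were. Pnmt (59.4 to 182.1) and Th (47.8 to 100.1) were above the filter level in all 6 samples. Whether any of these signals came from adrenal tissue was not tested.

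Markers of the labelled tissue were present. Of 14 listed tubule and glomerulus genes 12 were on the arrays, all 12 were tested, and Umod, the thick limb protein uromodulin, lay between 5763.4 and 7455.6. Slc12a1 lay between 11.4 and 123.9, with congenic sample 2 under 21.2. Of the 12, 10 had a higher and 2 a lower congenic mean (median +0.09), and limma gave 0 an adjusted or an unadjusted p under 0.05. The smallest p were those of Podxl, a podocyte surface protein (+1.08, SE 0.54), and Slc22a6, an organic anion carrier (+0.20, SE 0.13). Podxl read 363.6, 289.5 and 365.7 in the congenic samples, against 266.1, 277.1 and 55.6 in the Dahl S samples, so its difference leaned on Dahl S sample 3. A second Podxl probe set, not tested, gave +0.30. The summed signal of the 12 was 29638.9, 36213.3 and 34938.8 in the congenic samples, against 29590.5, 32375.4 and 31229.9 in the Dahl S samples. Slc34a1, at 10806.5 to 16451.4, made up the largest part of that sum.

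Gene families of the other members gave 0 genes with an adjusted p under 0.05 in limma, the smallest adjusted p being 0.9997. For Tuba4a, 7 of 16 listed tubulins were tested, 0 higher and 7 lower with a median of -0.27 and 0 with an unadjusted p under 0.05. The nearest were Tubb4b (-0.44, SE 0.20) and Tubb2b (-0.52, SE 0.30), both beta-tubulins. For Dnajb2, 15 of 19 co-chaperones of the same family were tested, 5 higher and 10 lower (median -0.08), with 0 at an unadjusted p under 0.05. Dnajc2 (-0.97, SE 0.58) and Dnaja2 (+0.28, SE 0.20) had the smallest p.

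Core autophagy genes, read for Atg9a, had 23 of 27 tested, 8 higher and 15 lower (median -0.04). Only 1 of the 23 had an unadjusted p under 0.05, Nbr1, a receptor for ubiquitin-tagged cargo (+0.63, SE 0.19), whose second tested probe set gave +0.19. Atg10, an enzyme of the autophagy conjugation pathway, was next at +0.45 (SE 0.33). For Abcb6, 9 of 18 related transporters and heme enzymes were tested, 6 higher and 3 lower (median +0.07), with 0 at an unadjusted p under 0.05. The heme enzymes Ppox (+0.31, SE 0.20) and Alas1 (+0.28, SE 0.27) had the smallest p.

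For Glb1l, 8 of 16 lysosomal glycosidases were tested, 3 higher and 5 lower (median -0.04), with 0 at an unadjusted p under 0.05. Man2b1 (-0.18, SE 0.13) and Fuca1 (-0.17, SE 0.15) had the smallest p, and Glb1, the beta-galactosidase itself, was at +0.03. For Dnpep, 10 of 11 aminopeptidases were tested, 4 higher and 6 lower (median -0.08). Metap1, which removes the starting methionine of new proteins, had an unadjusted p under 0.05 (+0.50, SE 0.20, second probe set +0.42). Lnpep was next at -0.34 (SE 0.24), and Enpep, the other enzyme of the set that acts on acidic residues of angiotensin II, was at +0.21.

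For Speg, 8 of 13 smooth muscle genes were tested, 4 higher and 4 lower (median +0.03). Acta2, smooth muscle actin, had an unadjusted p under 0.05, with 4 probe sets at -0.67 (SE 0.27), -0.52, -0.20 and -0.22. Tagln, the actin-binding protein transgelin, was at -0.38 (SE 0.17). Counting every tested probe set changed this picture: of 19, 6 were higher and 13 lower in congenic kidneys, with a median of -0.24, and 4 had an unadjusted p under 0.05, all lower. Besides that of Acta2 they were second probe sets of Tagln (-0.83, SE 0.21), of the myosin light chain Myl9 (-1.40, SE 0.44) and of the tropomyosin Tpm1 (-0.42, SE 0.18). These 3 were picked out after their values were seen. The probe sets with the highest signal gave -0.35 for Myl9 and +0.15 for Tpm1.

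Across the 10 lists, read by 1 probe set per gene, the genes with an unadjusted p under 0.05 were Cpd, Nbr1, Metap1 and Acta2. Over all 188 tested probe sets of the lists 8 (4.26%) had one, 3 higher and 5 lower, against 2.49% of all tested probe sets. The other 4 were those of Tagln, Myl9, Tpm1 and Tubb5 (-0.55, SE 0.18). Limma gave 0 of the 188 an adjusted p under 0.05. Several of the 188 read the same gene and are not independent, so nothing is read from the shares side by side.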

How the data were processed

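Kidney RNA of 3 congenic and 3 Dahl S samples went onto 3 array types each, per the labels. The authors deposited linear intensity values, 1 for each probe set, already scaled to a common trimmed mean (2% trimmed at each end). The sources used here do not give the summarising software. Detection calls, probe sequences and protein sequences were not used here. Label tags tied a sample's 3 arrays together.

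Values below the 10th percentile of an array type (3.1, 6.8 and 4.9 units on types A, B and C) were raised to it before log2. Control probe sets (59 per type) were left out, leaving 26202, of which 18178 had 1 gene symbol, 391 several and 7633 none. Of the 18178, 18122 matched the GRCr8 gene table. Probe sets under the 40th percentile were not tested. The median signal lay between 34.8 and 45.9 for type A arrays, between 60.4 and 78.5 for B and between 61.1 and 75.6 for C, and the number of arrays limits precision.

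The 15721 tested probe sets were fitted per array type with limma 3.58.1 in R 4.3.3 (lmFit, eBayes with an intensity trend), with Benjamini-Hochberg adjustment over all types. A gene was read by its probe set with the highest mean, and the lists were also counted over all their tested probe sets, added after seeing the data. The fit was tested on simulated data. Figures used matplotlib 3.10.9 in Python 3.11.15. The members, gene lists and tests were chosen with earlier results of these data known. Genes named were all members, the 5 nearest profiles, per list those past the threshold or else the 2 with the smallest p, neighbours with an unadjusted p under 0.05, and protein-coding genes between members. Others are named as chosen after their values were seen or as an end of a range or a relative of a member. Alternatives covered the floor, filter, normalization, variance model, adjustment, sample number as a block, and each sample left out. Those that leave out or model the samples numbered 1 or raise low signals to the filter level were added after seeing the data.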

Additional observations from a re-analysis of the deposited data

How the results depend on the processing

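Under every alternative run, limma gave 0 probe sets, 0 neighbours and 0 list genes an adjusted p below the threshold. The number of probe sets with an unadjusted p under 0.05 was 391, against 798 without the filter, 259 with a filter at the 60th percentile, 704 with a term for the samples numbered 1 and 592 without congenic sample 1. Leaving out 1 sample at a time gave 344 to 592 probe sets, 0 to 3 neighbours and 4 to 5 list genes. The list genes numbered 4 as reported, against 1 after median scaling, 6 after quantile normalization, 7 with the term for the samples numbered 1 and 8 with the replicate block described next, so that number depends on these settings. Samples of the same number deviated from their strain means with correlations of 0.45, 0.08 and 0.18 for numbers 1, 2 and 3, so the number was not taken to pair the samples in general, although the pair numbered 1 deviated together. With the sample number as a replicate block 0 probe sets passed and 819 had an unadjusted p under 0.05. Each number occurs once per strain, so the block cannot change a difference and the Resp18 value of -3.08 is no check. Resp18 probe set 1 gave -3.02 after quantile normalization and -3.06 after median scaling, and the mean of both Resp18 probe sets was -3.12. Of 210 member values under 14 alternatives, 17 changed sign, in Ptprn, Dnpep, Dnajb2, Speg and Atg9a. Among the 15 probe sets 9 had no change of sign, those of Resp18, Tuba4a, Stk16, Abcb6 and Glb1l among them. The block and the term for the samples numbered 1 are among the 14 and could not change any sign. Resp18 probe set 2 moved to -2.09 with low signals raised to the filter level. With 3 samples per strain and several signals under the filter level, the sizes given for Resp18 and Tuba4a are uncertain, and the spread of Stk16 leaves its difference to single samples. The strains' own sequences under the probes were not analysed here.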

Other observations

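Elsewhere on chromosome 9, outside the 10 members, 309 genes were tested, 151 higher and 158 lower in the congenic strain, with a median of -0.01 and 0 with an adjusted p under 0.05 in limma (4 with an unadjusted p under 0.05). In 25 of the 309 (8.09%) the strains did not overlap, against 7.62% of all genes, so the share was near that of all genes. Of the 25, 3 also had a difference of at least 1 log2 unit, a choice made after their values were seen. Chrnd, a muscle acetylcholine receptor subunit, read 44.4, 50.9 and 47.2 in the congenic samples, against 38.7, 3.4 and 18.3 in the Dahl S samples (+1.82, SE 0.85). Asb1, a SOCS box protein, read 43.3, 72.8 and 47.5 in the congenic samples, against 25.9, 15.5 and 18.2 in the Dahl S samples (+1.45, SE 0.44). Dahl S samples 2 and 3 were under the filter level of 21.2 in both genes. Fer, a tyrosine kinase, read 178.2, 118.8 and 49.1 in the congenic samples, against 272.9, 235.1 and 261.9 in the Dahl S samples (-1.34, SE 0.43), and its congenic values also spread more than its Dahl S values. The other 3 Fer probe sets, with lower signals, gave -0.75, -0.36 and -0.14.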
